A study of Mus musculus with 13 samples.

Results

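The NUP210 peaks with at least 2-fold more reads than IgG are described here. NUP210 is a large glycoprotein of the membrane ring of the nuclear pore complex, the channel that spans the nuclear envelope. Nucleoporins are also found at chromatin, where they have been linked to gene regulation at the nuclear periphery. The members were selected on their measured reads: distinct peaks of the NUP210 list were kept when NUP210 reads over IgG reads reached 2.022, which is 2-fold after the library ratio of 1.011. The rule kept 425 of 13204 distinct peaks (3.22%), on 399 of 6291 genes of the list (6.34%). Because these reads chose the peaks, their folds, reads and widths are given as a description with no test.

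All libraries came from 4T1, a mammary tumor line of BALB/cJ mice that metastasizes to lung when implanted. NUP210 and the nuclear pore complex (NPC, antibody MAb414, which binds several nucleoporins) were profiled in cells with a non-targeting guide (sg-Ctrl). H3K27me3, the repressive mark set by Polycomb complexes, and H3K4me3, the mark of active promoters, were profiled in sg-Ctrl cells and in CRISPR/Cas9 Nup210 knockout cells (KO, 1 clone, N13). There was 1 library per condition, so no difference could be tested over replicates. The 95% intervals are Wilson for shares, exact conditional for read ratios and order statistics for medians. Those of read ratios cover counting error only. Those of shares and medians treat peaks, genes or regions as independent draws, and none covers the spread between samples. IgG reads came from 1 rabbit library for NUP210, another rabbit library for both histone marks and a mouse library for NPC.

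The lists hold peaks on gene bodies, and for H3K4me3 those within 4 kb of a transcription start site (TSS), and peaks elsewhere were not analysed here. The NUP210 peaks held 7194586 reads, the NPC peaks 5866175, and the H3K27me3 peaks 7719297 (sg-Ctrl) and 26811061 (KO). H3K4me3 peaks held 26236314 and 24873356. H3K4me3 peaks lay at the TSS of all 7 epithelial genes examined, with 9.85 to 106-fold enrichment, and at 1 of 10 genes of other cell types (Cd68). Nup210 itself had an H3K4me3 peak in sg-Ctrl (885 reads, 46.3-fold over IgG) and no NUP210 peak. The knockout itself was not checked here, since NUP210 was profiled in sg-Ctrl cells.

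A few strongly enriched peaks spanned a promoter, and the sequences of 6 of these are shown as examples of peaks with and without H3K4me3. RefSeq (GRCm38.p6) holds 24 promoter windows, of 21 genes, that lie wholly inside 19 of the 425 peaks. Each line gives the 250 bases before the TSS, 5′ to 3′ on the gene's strand, with every CG dinucleotide in capitals. The first 3 promoters lay in strongly enriched peaks that met an H3K4me3 peak in sg-Ctrl, and the last 3 in peaks that did not.
Zcchc4 promoter (chr5:52782805-52783054, plus strand): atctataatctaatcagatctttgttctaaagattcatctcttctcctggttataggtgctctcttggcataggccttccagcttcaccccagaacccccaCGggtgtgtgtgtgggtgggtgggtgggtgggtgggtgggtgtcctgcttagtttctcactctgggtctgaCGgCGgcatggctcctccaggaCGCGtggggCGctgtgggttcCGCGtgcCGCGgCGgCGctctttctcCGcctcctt
Ralgapa2 promoter (chr2:146512005-146512254, minus strand): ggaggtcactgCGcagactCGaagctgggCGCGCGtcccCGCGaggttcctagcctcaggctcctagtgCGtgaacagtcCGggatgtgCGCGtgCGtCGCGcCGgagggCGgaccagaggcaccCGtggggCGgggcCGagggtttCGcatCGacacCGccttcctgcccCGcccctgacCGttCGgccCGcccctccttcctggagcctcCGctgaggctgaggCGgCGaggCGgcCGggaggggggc
Tbck promoter (chr3:132683894-132684143, plus strand): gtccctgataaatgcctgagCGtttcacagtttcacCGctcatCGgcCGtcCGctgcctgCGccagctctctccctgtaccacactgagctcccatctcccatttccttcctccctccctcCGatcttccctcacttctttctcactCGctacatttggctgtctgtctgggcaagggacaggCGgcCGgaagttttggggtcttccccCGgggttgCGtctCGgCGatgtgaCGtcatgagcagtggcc
Satb1 promoter (chr17:51812185-51812434, minus strand): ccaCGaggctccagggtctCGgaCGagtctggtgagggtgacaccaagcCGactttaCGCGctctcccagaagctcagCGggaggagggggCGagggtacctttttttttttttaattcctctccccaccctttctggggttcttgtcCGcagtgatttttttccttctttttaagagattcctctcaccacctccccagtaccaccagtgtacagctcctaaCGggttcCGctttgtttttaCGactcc
Olfr469 promoter (chr7:107823468-107823717, minus strand): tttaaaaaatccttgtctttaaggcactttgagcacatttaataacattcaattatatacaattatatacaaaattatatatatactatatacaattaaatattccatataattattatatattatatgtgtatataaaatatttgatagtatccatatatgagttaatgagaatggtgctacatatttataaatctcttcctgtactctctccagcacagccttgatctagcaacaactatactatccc
Hyal5 promoter (chr6:24857747-24857996, plus strand): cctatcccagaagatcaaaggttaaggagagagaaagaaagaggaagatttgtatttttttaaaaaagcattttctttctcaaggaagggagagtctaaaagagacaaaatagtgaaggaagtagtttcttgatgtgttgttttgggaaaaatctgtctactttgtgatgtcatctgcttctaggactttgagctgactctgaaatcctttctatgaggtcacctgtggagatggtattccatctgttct

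The CG dinucleotides were dense in the first 3 sequences, with 13 in Zcchc4, 31 in Ralgapa2 and 15 in Tbck. Satb1, whose product organizes chromatin loops in lymphocytes and other cells, held 12, whereas Olfr469 (an olfactory receptor) and Hyal5 (a hyaluronidase of sperm) held 0. Over all 24 windows the median was 2.5 CG (95% interval 1 to 9) and 46.2% GC. The 2919 promoter windows inside the other NUP210 peaks had a median of 3 CG and 44.8% GC, and all 32851 windows of the table had 6 CG and 52.4% GC. A CG, which reads the same on both strands, was present in 79.2% of the windows inside strongly enriched peaks, 82.2% of those inside other NUP210 peaks and 92.1% of all. The 5 windows in strongly enriched peaks with H3K4me3 had a median of 15 CG, and the 19 without it had 2. Among the 5, the windows of Tbck and Aimp1 (chr3:132683880-132684129) lie in the same peak and overlap on opposite strands, with 15 CG each. Such windows are not independent, though the medians and the interval count each of them.

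Of 5 microRNA genes paired with a strongly enriched peak (Mir133b, Mir297c, Mir1195, Mir1946b and Mir1196), mature sequences lay inside the peak for Mir133b, a microRNA of skeletal muscle. Its peak (chr1:20681001-20685000) had 140 NUP210 and 62 IgG reads and met an H3K27me3 peak in KO (2.28-fold over IgG) and none in sg-Ctrl. Both arms are given with the seed, bases 2 to 8, in capitals.
miR-133b-5p: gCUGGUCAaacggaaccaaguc
miR-133b-3p: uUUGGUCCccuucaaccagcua

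Strongly enriched peaks were narrow. Their median width was 4000 bp (range 1000 to 20000), against 15000 bp for the other 12779 peaks, and 288 of 425 (67.8%) spanned at most 5 kb, against 8.47% of the others. Their share among all NUP210 peaks fell with width, from 112 of 277 peaks of 1 to 2 kb (40.4%, 34.8 to 46.3) through 104 of 807 of 4 to 5 kb (12.9%) to 16 of 8829 over 10 kb (0.181%). SICER, the caller used by the authors, joins enriched 1000 bp windows into domains, so widths come in steps of 1 kb.

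Within a width class, strongly enriched and other peaks differed in IgG reads more than in NUP210 reads. In peaks of 3 kb the median NUP210 density was 38.7 reads per kb for strongly enriched and 38.3 for other peaks, while IgG density was 15.7 (14.3 to 16.7) and 28 (26 to 30). In peaks of 6 to 10 kb NUP210 density was 26.3 and 26.6, and IgG density 11.4 and 21.4. Peaks of 1 to 2 kb also had more NUP210 reads, 59.0 per kb against 48.5, with IgG at 21 against 35. Over all widths the medians were 35.7 NUP210 and 14 IgG reads per kb in strongly enriched peaks, and 25.7 and 21.8 in the others. The plot of NUP210 against IgG density shows the members as the low-IgG edge of one cloud.

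**Figure D1:**
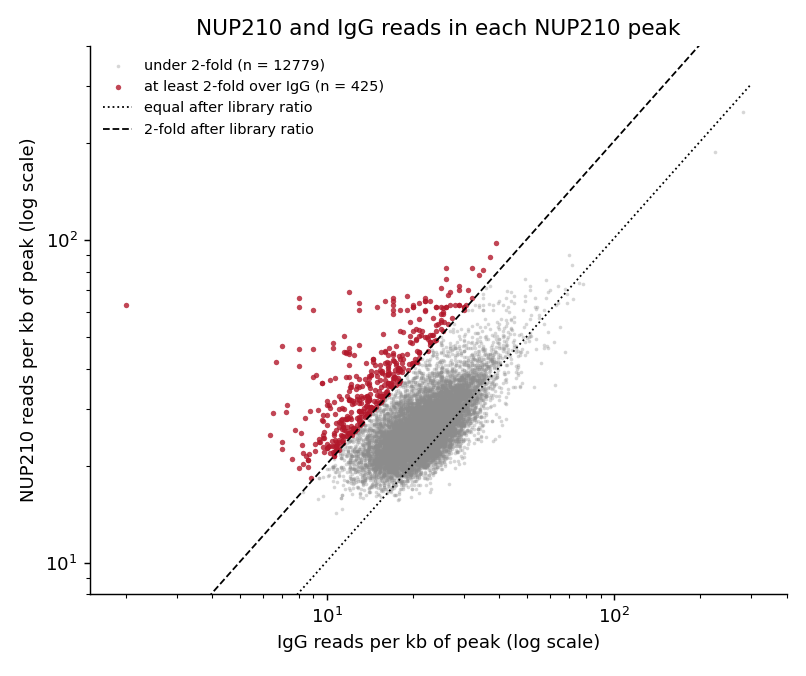
Each point is 1 NUP210 peak, with IgG reads per kb on the x axis and NUP210 reads per kb on the y axis, both on a log scale. Red points are the 425 peaks at least 2-fold over IgG and grey points the other 12779; the dotted and dashed lines mark equal and 2-fold reads after the library ratio, and the red points extend to lower IgG density (2.00 to 39.0 reads per kb) at NUP210 densities of 18.4 to 98.0.

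The rabbit IgG library of the histone marks was not used to choose the NUP210 peaks, but the H3K27me3 peaks were called over it. At H3K27me3 peaks of sg-Ctrl up to 10 kb wide, it held a median of 16 reads per kb (12.5 to 18.3, n = 39) where they met a strongly enriched peak and 19.2 (18.7 to 19.7, n = 793) where they met a NUP210 peak under 2-fold. H3K27me3 reads at these positions were 26.3 and 26.6 per kb. In the mouse IgG library, NPC peaks up to 10 kb held 33.7 reads per kb (31.8 to 37.0, n = 28) at strongly enriched peaks and 37.3 (36.8 to 37.9, n = 1445) at others. The NPC peaks were likewise called over the mouse IgG library, and widths of the peaks met were not matched. These values are thus a description of positions that passed a filter on the same IgG reads. The part of IgG coverage in the selection was not tested.

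Folds over IgG, as deposited by the authors, had a median of 2.36 and quartiles of 2.14 and 2.68. The fold was at least 3 in 62 peaks, at least 4 in 22 and at least 5 in 10. The lower bound of the fold was above 1 in all 425 peaks and at least 2 in 75, so counting error alone spans the limit for most. Peaks just inside the limit lay in Klhl20 (91 NUP210 and 45 IgG reads) and A330093E20Rik (144 and 71). Peaks just outside lay in Ssbp2 (216 and 107) and Shisa9 (244 and 121). No FDR of a strongly enriched peak exceeded 8.43e-07.

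The highest fold was at a 1 kb peak on chr3:153851001-153852000, in 2510003D18Rik and Asb17, an ankyrin repeat gene of testis. It had 63 NUP210 and 2 IgG reads, 31.2-fold (8.27 to 263), so the fold rests on 2 reads. Dock8, an activator of the GTPase Cdc42, followed with 66 and 8 reads in the middle of the gene (8.16-fold, 3.91 to 19.7). Skint10, of the family of Skint1, which selects epidermal T cells, had 62 and 8 reads (7.66-fold). Other peaks of the top 10 lay in Pcdha4-g and Pcdhb13 (6.70-fold), 4922501L14Rik (6.64), Clip1, a microtubule plus-end protein (5.69), Efhc2 (5.69), the axonemal dynein gene Dnahc7a (5.05) and the copine gene Cpne4 (5.03). All 10 spanned at most 3 kb, and 61 to 126 NUP210 reads lay in each.

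The peaks with the most reads were wider and closer to the limit. Hyal5 had the widest, 20 kb with its midpoint at the gene start, with 430 NUP210 and 211 IgG reads (2.02-fold, 1.71 to 2.39). An 18 kb peak over the shared promoter of Aimp1, a scaffold of the tRNA synthetase complex, and Tbck had 420 and 196 reads (2.12-fold). Next came Rims2, a protein of the synaptic active zone (392 and 179 reads), the Slit receptor gene Robo2 (390 and 189), the ephrin receptor gene Epha6 (386 and 186) and Ccdc18 (381 and 154). Nrxn3, Prrg1, Bank1 and Fgf14 had 317 to 349 NUP210 reads. Hrasls, an acyltransferase gene, had a 15 kb peak (297 and 129 reads) and Prrg1 one of the same width.

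Genes with a strongly enriched peak were long. Their median length was 163 kb (133 to 188), against 34.4 kb for the other 5892 genes of the NUP210 list, and 263 of 399 (65.9%) exceeded 100 kb, against 21.1%. Such a peak was carried by 57 of 2793 genes up to 30 kb (2.04%), 79 of 1991 of 30 to 100 kb (3.97%), 138 of 1075 of 100 to 300 kb (12.8%) and 125 of 432 over 300 kb (28.9%). Long genes could hold many NUP210 peaks, such as 55 in Lrp1b (2 strongly enriched) and 50 in Cntnap2 (1 strongly enriched). Shares per peak by gene length were not computed, so the shares per gene do not separate length from number of peaks.  Of the genes matched to RefSeq, 350 of 370 were protein coding, given without the share of the other genes and so not a result about the members.

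Most genes carried 1 strongly enriched peak, and 37 carried at least 2. Ptprd, a receptor tyrosine phosphatase gene of 2271 kb, carried 7 among its 50 NUP210 peaks. They lay between 7.11% and 93.1% along the gene, with 65 to 231 NUP210 reads and 23 to 105 IgG reads each, and folds of 2.03 to 3.81. Agbl4, a deglutamylase of tubulin, carried 4 of 23. Il1rapl1, an X-linked synaptic receptor, carried 3 of 36, Astn2 3 of 10, Slc8a1, the sodium/calcium exchanger, 3 of 7, Pkib, an inhibitor of protein kinase A, 3 of 6, and 1700112E06Rik 3 of 6. Pcdha4-g, a transcript model that spans the protocadherin clusters, carried 3 of 13.

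The members fell largely inside genes. Counted per peak and gene, 424 of 449 midpoints (94.4%, 91.9 to 96.2) lay between the gene's start and end, against 81.6% of 14114 such pairs for other peaks. The gene start was under the peak in 21 pairs (4.68%, 3.08 to 7.04), against 20.5%, and the gene end in 33 (7.35%, 5.28 to 10.1), against 24.2%. The peaks also differed in size relative to the gene: a strongly enriched peak took a median 1.96% of its gene, against 10.1%. Other peaks were wider (median 15000 against 4000 bp), and position was not split by width. A peak listed for several genes enters once per gene, and the intervals treat such pairs as independent. With each peak counted once, by its longest gene, 95.1% of midpoints lay inside, against 86.8% of the others.

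Each gene was divided into 5 equal parts along transcription. Of the inside midpoints of strongly enriched peaks, 15.6% (12.4 to 19.3) were in the part at the start, then 18.4%, 24.5%, 21.5% and 20.05% towards the end. Other peaks had 19.7% in the starting part and 17.2% in the ending part, and the intervals overlapped at the start and at the end. In genes over 100 kb, 17.2% of strongly enriched midpoints were in the starting part and 22.7% (18.3 to 27.6) in the ending part, against 20.4% and 16.8% (15.9 to 17.6) of the others, and the intervals at the end did not overlap. The median distance from the gene start was 86.1 kb, against 66.8 kb.

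**Figure D2:**
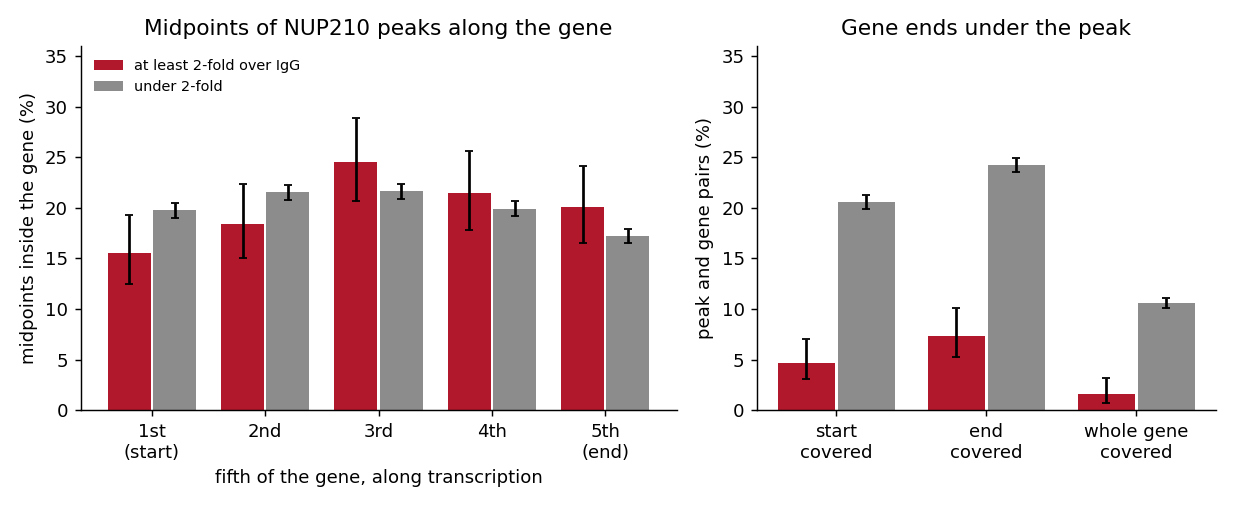
Left, share of midpoints (%) in each of 5 equal parts of the gene, from start to end, for strongly enriched peaks (red, n = 424) and other NUP210 peaks (grey, n = 11520). Right, share of peak and gene pairs (%) with the gene start, the gene end or the whole gene under the peak; bars are shares with 95% Wilson intervals, and the red bars are lower in all 3 groups (4.68%, 7.35% and 1.56% against 20.5%, 24.2% and 10.6%).

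The chromosomes held strongly enriched peaks in unequal shares. Chromosome X had the highest, 31 of 288 NUP210 peaks (10.8%, 7.69 to 14.9), then chromosome 4 with 37 of 468 (7.91%, 5.79 to 10.7) and chromosome 18 with 22 of 331 (6.65%, 4.43 to 9.86). Chromosome 8 had 8 of 742 (1.08%, 0.547 to 2.11) and chromosome 15 had 8 of 577 (1.39%, 0.704 to 2.71). Among peaks up to 10 kb the order of these 5 was the same, with 21.1% on X, 19.1% on 4, 17.5% on 18, 5.44% on 15 and 3.46% on 8.

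Chromosomes with higher shares had fewer reads of both kinds in their NUP210 peaks. Median IgG density was 17.4 reads per kb on X and 18.6 on chromosome 4, against 23.8 on chromosome 8 and 24.8 on chromosome 15, and NUP210 density 24.6, 24.1, 27 and 28.2. Over the 20 chromosomes Spearman's rho of the share with IgG density was -0.88 and with NUP210 density -0.86. This is a description, since the fold shares its reads with both measures. For strongly enriched peaks, the nearest other one was a median of 1486 kb away, and 46 of 425 had another within 100 kb. A NUP210 peak under 2-fold lay within 10 kb of 164 (38.6%). Such distances were not computed for other NUP210 peaks, so they are not a result about the members.

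**Figure D3:**
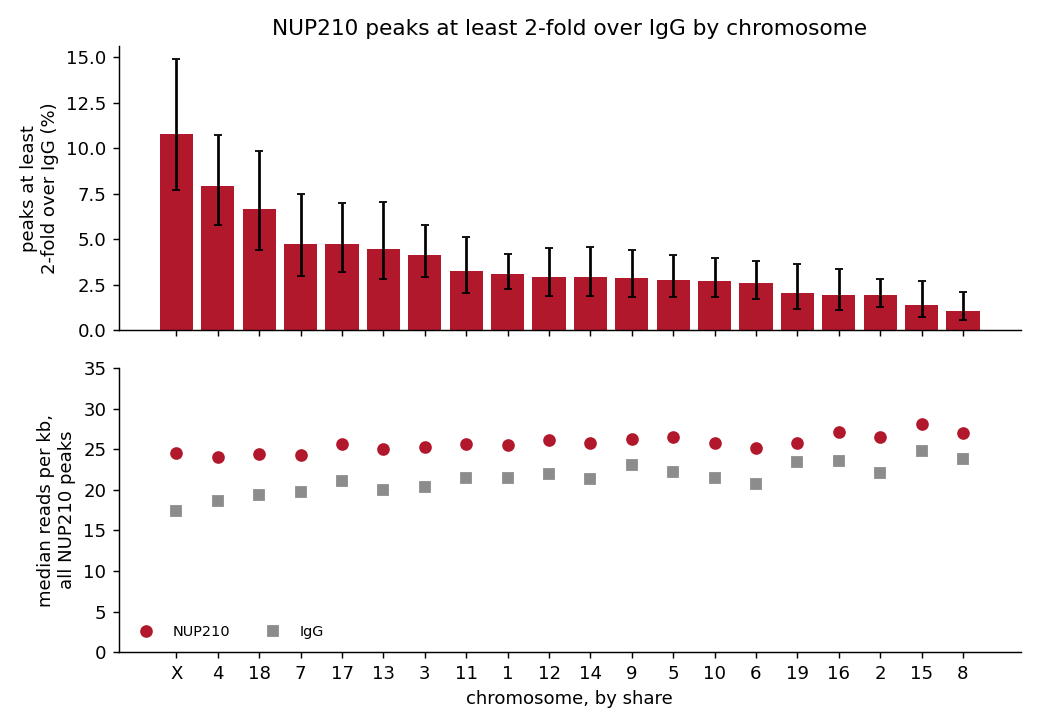
Top, share of NUP210 peaks at least 2-fold over IgG (%) on each chromosome, in order of that share, with 95% Wilson intervals. Bottom, median NUP210 (circles) and IgG (squares) reads per kb of all NUP210 peaks of the chromosome; the share runs from 10.8% on X to 1.08% on 8 while IgG density runs from 17.4 to 23.8.

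The other lists were not used by the rule. In sg-Ctrl, 205 of 425 strongly enriched peaks (48.2%, 43.5 to 53.0) met no peak of NPC, H3K27me3 or H3K4me3, against 16.9% of the others. Another 88 (20.7%) met H3K27me3 alone, 75 (17.6%) NPC alone, 40 (9.41%) H3K27me3 and NPC, 12 (2.82%) H3K4me3 alone and 5 (1.18%) H3K4me3 and NPC. None met H3K4me3 and H3K27me3 together, which allows a share of up to 0.706%. These combinations are given without the shares of the other peaks, so they are not a result about the members. Other peaks were wider (median 15000 against 4000 bp), and the share that met no peak was not split by width.

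NPC peaks met strongly enriched peaks less often than other NUP210 peaks. The share was 120 of 425 (28.2%, 24.2 to 32.7) against 9144 of 12779 (71.6%), and the intervals stayed apart in 4 of 5 width classes. It was 21.4% against 41.8% in peaks of 1 to 2 kb, 33.7% (25.3 to 43.2) against 52.6% (48.9 to 56.3) at 4 to 5 kb, 28.1% against 55.8% at 6 to 10 kb and 43.8% against 79.5% over 10 kb. At 3 kb it was 27.8% (18.8 to 39.0) against 43.5% (37.0 to 50.2), where the intervals overlapped. By NUP210 fold, 92 of 276 peaks under 2.5-fold (33.3%), 23 of 87 from 2.5 to 3-fold (26.4%) and 5 of 62 from 3-fold (8.06%, 3.49 to 17.5) met NPC, while median width fell from 5000 to 3000 and 2000 bp.

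The NPC peaks that met members were weak, as were those at other NUP210 peaks. Their median NPC fold over mouse IgG was 1.14 (1.10 to 1.16), against 1.08 for those at other NUP210 peaks, and 0 of 117 reached 2-fold, which allows a share of up to 2.56%, against 22 of 7972 (0.276%) at the others. The highest was in Cntnap5c (1.94-fold, 155 NPC and 132 IgG reads), a neurexin family gene. Sorcs3, a sortilin receptor gene (1.90), Cntnap2 (1.73), Suclg2, of the citric acid cycle (1.72), and the scaffold gene Mpp6 (1.63) followed.

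H3K27me3 met strongly enriched peaks in a share whose interval overlapped that of other NUP210 peaks. In sg-Ctrl the share was 128 of 425 (30.1%, 25.9 to 34.6) against 35.1% (34.3 to 35.9), and the intervals also overlapped in each of the 5 width classes. The share was 27.7% (20.2 to 36.6) against 32.7% (26.0 to 40.2) at 1 to 2 kb, 34.6% against 32.3% at 4 to 5 kb and 28.1% (20.9 to 36.7) against 36.1% (34.4 to 37.9) at 6 to 10 kb. The mark covered 28.0% of the length of strongly enriched peaks and 27.1% of that of the others. Where it met them, H3K27me3 peaks were a median 2.62-fold over IgG (2.37 to 2.88), against 2.16 (2.11 to 2.20) at other NUP210 peaks. This fold was not split by width of the H3K27me3 peak. In those up to 10 kb, as given above, H3K27me3 density was near equal and IgG density was lower at members. Whether the mark itself was stronger at members was not tested.

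**Figure D4:**
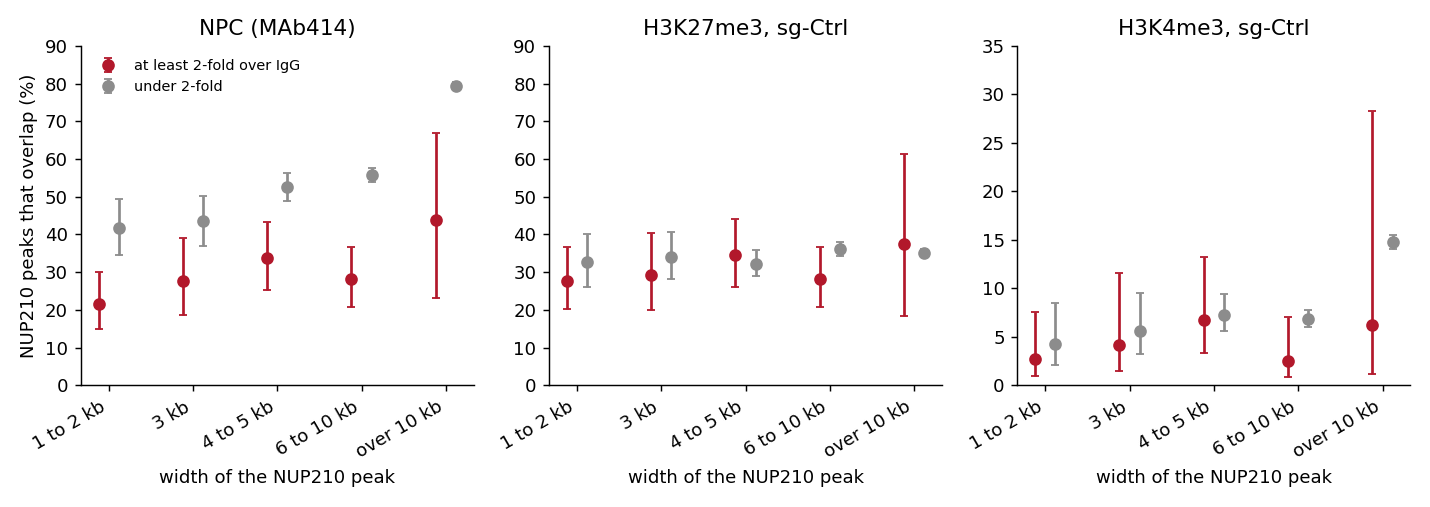
Share of NUP210 peaks (%) that met a peak of NPC (left), H3K27me3 (middle) or H3K4me3 (right) in sg-Ctrl, by width of the NUP210 peak, for strongly enriched peaks (red) and others (grey) with 95% Wilson intervals. The red points lie below the grey ones for NPC in each width class (21.4% against 41.8% at 1 to 2 kb), while the intervals overlap for H3K27me3.

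The members with the highest NUP210 fold among those with H3K27me3 were 2510003D18Rik and Asb17, Pcdha4-g and Pcdhb13, Dnahc7a, 1810046K07Rik (4.87-fold NUP210) and Skap1, a T cell adaptor gene (4.52). Their H3K27me3 peaks in sg-Ctrl were 2.11, 6.61, 4.18, 3.48 and 3.31-fold over IgG and spanned 16 to 136 kb. In KO they were 1.80, 4.42, 4.35, 3.60 and 3.57-fold over the same IgG library.

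H3K4me3 was met by 17 strongly enriched peaks (4.00%, 2.51 to 6.31), against 12.3% of the others. Within width classes of up to 10 kb the intervals overlapped, for instance 6.73% (3.30 to 13.2) against 7.25% at 4 to 5 kb. The H3K4me3 peaks themselves were strong, with a median of 44.3-fold over IgG (31.1 to 53.9), against 40.3-fold at other NUP210 peaks. The highest by NUP210 fold included Zcchc4, an RNA methyltransferase gene (157 NUP210 and 62 IgG reads, 50.1-fold H3K4me3), Upf2, of nonsense-mediated decay (167 and 66 reads, 44.3-fold), Ccdc112 (158 and 63 reads, 26-fold) and Fam110c (125 and 50 reads, 69.7-fold). In KO, 16 of the 17 still met an H3K4me3 peak, and the exception was the peak in Cyp1b1, a cytochrome P450 gene, which met a weak H3K4me3 peak (5.03-fold in sg-Ctrl).

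By gene, 171 of 399 genes with a strongly enriched peak (42.9%, 38.1 to 47.8) had an H3K4me3 peak at the TSS in sg-Ctrl, against 52.6% of other NUP210 genes. An H3K27me3 peak lay on 207 (51.9%, 47.0 to 56.7), against 35.8%. Gene length went with both marks. In genes over 300 kb the shares were 22.4% against 32.2% (27.3 to 37.7) for H3K4me3 and 77.6% (69.5 to 84.0) against 72.0% (66.7 to 76.7) for H3K27me3, and in genes of 30 to 100 kb they were 57.0% against 70.8% and 32.9% against 26.7%. Up to 30 kb, H3K4me3 was at 47.4% against 38.3%, the opposite order. Over 300 kb the intervals overlapped for both marks, and the shares for genes of 100 to 300 kb are not given here.

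Gene lists were counted among genes with any NUP210 peak, of which 6.34% carried a strongly enriched one. Of 43 long neural adhesion and synapse genes, 13 did (30.2%, 18.6 to 45.1), near the 28.9% of all genes over 300 kb. Among them were Cntnap2, Cntnap5a, Cntnap5c, Ctnna2, Dlg2, Dmd, Il1rapl1, Il1rapl2, Lrp1b, Lsamp, Nrxn3 and Ptprd. The 13 genes held 23 strongly enriched peaks of 2.02 to 3.81-fold. Of these 23 peaks, 6 met NPC, 4 H3K27me3 in sg-Ctrl, 2 H3K27me3 in KO and 0 H3K4me3. Lrp1b, a lipoprotein receptor gene, had 2, with 143 and 118 NUP210 reads over 49 and 51 IgG reads. Dmd, the dystrophin gene, had 1, with 110 over 39.

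The clustered protocadherins, a family of cell adhesion genes, had 14 of 20 symbols marked, but these were 3 distinct peaks. Each of the 3 met H3K27me3 in both sg-Ctrl and KO, and none met NPC. Olfactory receptors had 5 of 695 (0.719%, 0.308 to 1.67), against 6.34% of all genes and 2.04% of genes up to 30 kb (1.58 to 2.63), whose interval overlaps. That group of short genes includes olfactory receptors, so the overlap does not compare them with the remaining short genes, whose share was not computed. Vomeronasal receptors had 0 of 115, which allows up to 2.61%, so a difference from genes up to 30 kb was not detectable. Solute carriers had 8 of 91 (8.79%, 4.52 to 16.4), zinc finger genes 3 of 93, predicted genes 7 of 189, clones ending in Rik 22 of 462, microRNA genes 5 of 135, cytochrome P450 genes 2 of 26 and the list of keratins and keratin-associated proteins 1 of 17 (Krtap4-8, a keratin-associated protein gene). No strongly enriched peak lay on the 13 nucleoporin genes, 14 serpins, 9 killer lectin receptors, 5 genes of PRC2 and SUV39H or 1 of LINC and lamina with a NUP210 peak. It was also absent from the 3 migration and adhesion genes of the study with one (Cxcl3, Postn and Ptk2, at most 1.14-fold). A count of 0 allows up to 23.1% for the nucleoporin genes and 21.4% for the serpins, and the other lists were smaller. A difference from the 6.34% of all genes was thus not detectable in any of them. Histone genes and T and B cell receptor segments had no NUP210 peak in the list.

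H3K27me3 at the members was then compared between KO and sg-Ctrl. In KO, 137 of 425 peaks met H3K27me3 (32.2%, 28.0 to 36.8), against 35.7% of the others. Both lists marked 109, sg-Ctrl alone 19, KO alone 28 (6.59%, 4.60 to 9.36, against 4.86% of the others, 4.50 to 5.25) and neither 269. Among the 62 peaks from 3-fold, the mark of sg-Ctrl was met by 20 (32.3%, interval 22.0 to 44.6), and that of KO by 29 (46.8%, interval 34.9 to 59.0). The highest of those with it in KO alone were Skint10, 4922501L14Rik and the calcium channel gene Ryr2. The KO library of this mark was deeper, with 3.16 times the library size, and its part in calls found in KO alone was not tested.

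Overlapping H3K27me3 peaks of both lists were joined to 10188 regions, and reads were divided by library size. Of 151 regions that held a strongly enriched peak, 113 had the mark in both cell lines, 23 lacked it in sg-Ctrl and 15 lacked it in KO. Of all 10188 regions, 6247 had it in both, so regions in a single list were not particular to the members. The median log2 of KO over sg-Ctrl was 0.10 (-0.14 to 0.18), against 0.02 over all 6247 regions in both lists. It was at least 2-fold higher in 13 of 113 (11.5%), against 12.1% of all regions, and at least 2-fold lower in 10 (8.85%), against 9.56%. These shares are near the background. Such sums move with how much was called: scaled per kb covered by each list, 0 of the 113 regions were at least 2-fold higher and 3 lower (10 and 64 of all). Scaling on peaks at the same position instead raised all log2 ratios by 0.15, with 17 regions higher and 9 lower (922 and 475 of all).

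The regions at the extremes differed in covered length, in reads per covered kb or in both. Around Dlg2, a postsynaptic scaffold gene, H3K27me3 peaks covered 8 kb in sg-Ctrl (147 reads) and 79 kb in KO (6281 reads), a log2 ratio of 3.76, while scaled reads per covered kb were 21.7 and 29.7. Around 1810046K07Rik the mark covered 41 and 271 kb (log2 ratio 2.63). Adam26a (3.34), Ptchd4 (2.75) and Gm1715 (1.97) also gained length. In the other direction, the region at Camk4, a calcium-dependent kinase gene, was covered over 131 kb in sg-Ctrl (7261 reads) and 41 kb in KO (2868 reads), a log2 ratio of -3, with 65.5 and 26.1 scaled reads per covered kb. Atp6v0d2, a proton pump subunit gene (-2.31), Chn1 (-1.54, of which -1.12 per covered kb), Sycp1 of the synaptonemal complex (-1.48, of which -1.19 per covered kb) and 2510003D18Rik with Asb17 (-1.44) followed. The last holds the peak with the highest NUP210 fold, and its H3K27me3 covered 26 kb in sg-Ctrl and 11 kb in KO.

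**Figure D5:**
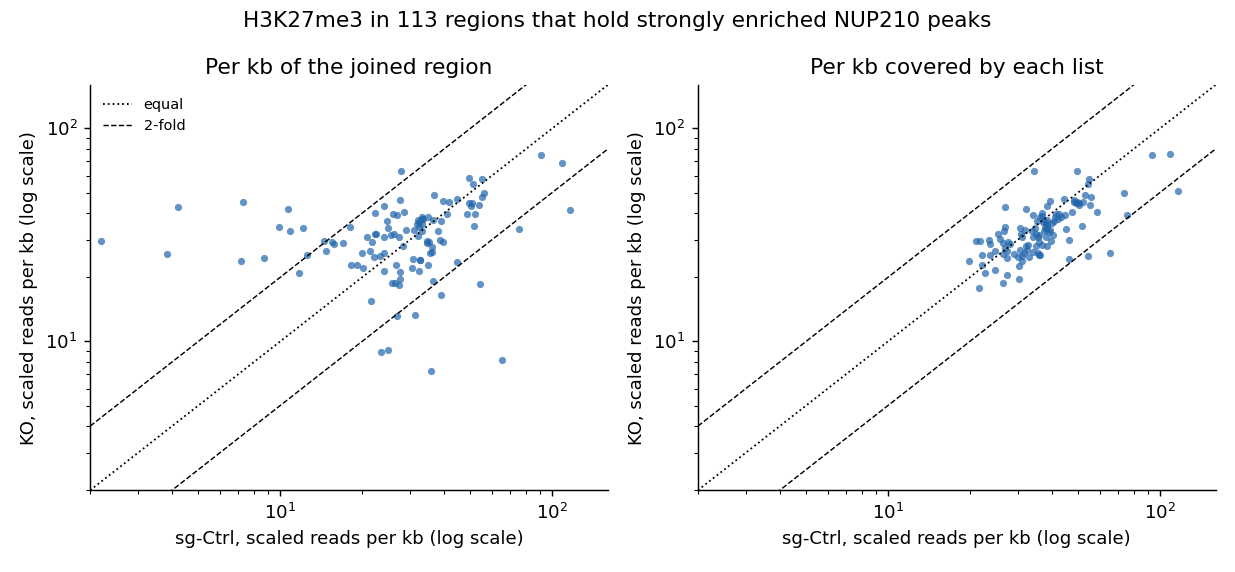
H3K27me3 in the 113 regions marked in KO and sg-Ctrl that held a strongly enriched NUP210 peak, as reads divided by library size per kb, with sg-Ctrl on the x axis and KO on the y axis (log scales). The left panel divides by the joined region and the right panel by the length each list covers, with dotted and dashed lines at equal and 2-fold; 13 and 10 regions lie past 2-fold on the left, 0 and 3 on the right.

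H3K4me3 at the TSS was compared in 166 genes with a strongly enriched peak and a peak in both lists. The median log2 of KO over sg-Ctrl, per kb and by library size, was -0.53 (-0.61 to -0.45), against -0.50 over all 12197 genes. At least 2-fold lower were 16 (9.64%), against 9.66% of all genes, and at least 2-fold higher 1 (0.602%), against 0.525%. Scaling on peaks at the same position in both lists raised every ratio by 0.47, and 4 genes were then lower and 3 higher, against 130 and 245 of all. The members' median was then -0.065.

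Cped1 had the lowest ratio, with 592 reads in 1.6 kb in sg-Ctrl and 125 in 1.0 kb in KO (log2 ratio -1.91, -2.20 to -1.63). Nhsl1 fell by 1.76, but the peaks compared lay at different positions near its TSS. The main TSS peak of Cyp1b1 had 784 and 260 reads (-1.73), the carbohydrate kinase gene Fggy 2009 and 1130 (-1.56) and Faf1, a ubiquitin-binding factor of the Fas pathway, 5273 and 2756 (-1.28). Plcl1, a phospholipase C-like gene, was the 1 gene past 2-fold higher, with 72 reads in 1.2 kb and 630 in 3.6 kb (1.2, 0.85 to 1.57). A TSS peak was listed for 5 genes without one in KO (Ccdc73, Epdr1, Pdzrn4, Phactr2 and Txlnb) and for 5 without one in sg-Ctrl (Camk4, Nebl, Pclo, Satb1 and Tmem232). Over all genes, 12453 had a TSS peak in sg-Ctrl, 12437 in KO and 12197 in both. Genes in a single list were thus also found outside the members, and these counts are not a result about them.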

How the data were processed

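ChIP-seq peak lists of 4T1 cells were analysed, 1 library per condition. The authors called domains with SICER (200 bp windows for H3K4me3, 1000 bp for H3K27me3 and NUP210; that of NPC is not given in the sources used here) and deposited, per peak, the read count of the ChIP and IgG libraries, the fold (ratio) of ChIP to IgG after library scaling, and a p-value with its FDR. The submitters' processing notes name mm9, mm10, NCBIM37, Trimmomatic, STAR, Picard and Bowtie2, with no versions. The aligner of each file is not given in the sources used here. Gene positions lay within 50 bp of GRCm38.p6 at the start or end for 5092 of 5853 matched genes (87.0%), so positions are given on that build. Promoter and microRNA sequences are from RefSeq GRCm38.p6. Peak sequences were not used here.

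Peaks listed for several genes were counted once. Shares, medians and ratios were computed with scipy 1.17.1, pandas 2.3.3 and numpy 2.4.6 under Python 3.11.15, by code tested on simulated data. Overlap meant at least 1 bp. KO to sg-Ctrl ratios were divided by library size, taken from the IgG library that both shared. The members and gene lists were chosen with earlier results of these data known. Named peaks were the 10 of highest fold (at least 20 reads), the 10 with most reads, the 5 widest, the 8 genes with most peaks, up to 5 meeting each of H3K4me3, H3K27me3 and NPC, 3 on either side of the limit, listed genes, and up to 5 in each direction of KO to sg-Ctrl. The promoters and the microRNA whose sequences are printed, Ryr2 and the genes with H3K4me3 in a single cell line were named after their values were seen. Some items that this rule names are not reported here. Alternatives changed the fold limit, the overlap, the other lists' thresholds and the scaling. The 4 RNA-seq samples are not used here, and the 3 IgG samples entered through the IgG reads of the lists.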

Additional observations from a re-analysis of the deposited data

How the results depend on the processing

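With 1 library per condition no alternative tests the spread between samples. No paired analysis was possible because each ChIP condition has 1 library and the numbered RNA-seq samples are not used here. The alternatives for chromosome X and for long neural genes were chosen after seeing the data. Shares of neural genes are set beside all other genes, without matching for length or number of peaks. A limit of 1.5-fold kept 1883 peaks, with a median width of 7000 bp, 89.5% of midpoints inside the gene, 44.2% meeting NPC (other NUP210 peaks 74.5%), 35.1% of X peaks (other chromosomes 13.8%) and 88.4% of the neural genes (other genes 22.2%). A limit of 3-fold kept 62 peaks (2000 bp wide), with NPC at 8.06% (others 70.5%), H3K27me3 in KO at 46.8% (35.5%), H3K4me3 at 0% (12.1%), genes with H3K4me3 at 31.2% (52.2%), a median H3K4me3 log2 ratio of -0.29 (other genes -0.50), 2.08% of X peaks (0.434%) and 1 of 43 neural genes (2.33%, 0.412 to 12.1; others 1.01%). A lower bound at the limit kept 75 peaks (3000 bp), with NPC at 16% (70.5%), H3K27me3 in KO at 37.3% (35.6%), H3K4me3 at 0% (12.1%), genes with H3K4me3 at 37.7% (52.2%), a log2 ratio of -0.34 (-0.50), 2.43% of X peaks (0.526%) and 4.65% of neural genes (1.2%). With the other lists held to an FDR of 0.01 and 2-fold, NPC met 0% (others 0.235%), H3K27me3 22.8% in sg-Ctrl (22.7%, the order turned) and 20.7% in KO (21.7%), all near the others. With 50% of the peak covered, H3K4me3 met 2.35%, above the 0.798% of other peaks, the reverse of the order at 1 bp. Counting pairs with no gene end or start covered gave 89.5%. The median H3K27me3 log2 ratio was 0.25 with same-position scaling and reversed to -0.15 when each list was divided by its own covered length, and that of H3K4me3 was -0.065 with same-position scaling. The cause was not tested. The order against other NUP210 peaks held in 8 of 8 alternatives for NPC and for position, 6 of 6 for width and 5 of 8 for H3K27me3 in KO. An FDR limit of 0.01 for the NUP210 peaks kept the same 425, so that alternative repeats the main setting in each count. The NPC count includes the 0% against 0.235%, which cannot show an order. Width was bound to the reads that chose the peaks, so its count is a description.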
